A study of Mus musculus with 22 samples.

Results

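Transcripts of 10 genes that encode C-type lectin receptors of myeloid cells were followed in sorted lung cells of mice carrying a mutant surfactant protein C, SP-C I73T. The 10 genes were taken from a list of names, with Ensembl identifiers matched to mouse symbols, by a rule that uses no measured value, although the list was drawn up with earlier results of these data known. All 10 were present in both deposited count tables, which together list 55439 genes, and all 10 passed the filter on low counts in every principal fit. The 22 samples came from C57BL/6 mice of the genotype SP-CI73T mutant, which the controls shared. In this line a single oral gavage of tamoxifen activates a Flp-O recombinase, driven from the Rosa26 locus and controlled by the estrogen receptor, which removes a neomycin cassette and raises the mutant protein in the alveolar epithelium. The mutant is therefore made by epithelial cells and not by the cells that were sequenced. Ly6Chi monocytes (CD11b+Ly6Chi) comprised 4 control samples, 4 samples collected 3 d after tamoxifen and 4 collected after 14 d. Alveolar macrophages (SigF+CD11b-) comprised 4 control samples, 3 samples at 3 d and 3 at 14 d. Controls are called untreated in the labels. The study names oil-treated mutants as the controls of the sequencing, and its methods describe controls in general as oil-treated mutants together with tamoxifen-treated mice that lack the recombinase.

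C-type lectin receptors are membrane proteins whose extracellular domain recognises carbohydrates, lipids or proteins of microbes and of damaged cells. Activating members signal through the kinase Syk, either by a motif in their own tail, as in Dectin-1, or by the adaptors FcRγ and DAP12, and Card9 with Bcl10 and Malt1 passes this signal on to NF-κB. Inhibitory members carry a tail motif that recruits phosphatases and dampens the same cells. In the lung such receptors are best known for the recognition of fungi and mycobacteria by macrophages and by recruited monocytes and neutrophils.

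The family falls into a few genomic neighbourhoods. On GRCm38, as annotated by GENCODE M21, the 6 genes of the Clec4 group (Clec4n, Clec4d, Clec4e, Clec4a1, Clec4a2 and Clec4a3) lie within 368.0 kb of chromosome 6, at chr6:122921848-123289870. Clec12a and Clec7a lie within 130.1 kb further along the same chromosome, at chr6:129342691-129472779, and Clec7a is annotated there as a polymorphic pseudogene although it was among the most abundant of the 10 here. Clec5a stands alone at chr6:40574894-40585821 and Clec10a at chr11:70156197-70170834. Of the words of 100 bases in the exons, 2.14% of those of Clec4a2 were also found in Clec4a4 and 2.64% of those of Clec10a in Mgl2, and none of the other 8 members shared such a word with another gene, so nearly all positions of each receptor can be assigned to 1 gene.

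Promoter windows of RefSeq (GRCm38.p6, 250 bases before to 50 bases after an annotated start) were found for 8 of the 10 members, in 10 windows. The first pair below is shown because Clec4a1 and Clec4a3 moved almost in parallel in monocytes and apart in macrophages at 14 d. Capitals mark the runs of at least 12 bases that these windows share on the same strand, 1 of 14 and 1 of 17 bases. The Clec4a1 window lies at chr6:122921598-122921897 and the Clec4a3 window shown at chr6:122952394-122952693, both on the plus strand. Clec4a3 has another window, at chr6:122952265-122952564, which holds neither run. Relative to the annotated start, the run of 14 bases begins at -234 in Clec4a1 and at -68 in the Clec4a3 window shown.
Clec4a1: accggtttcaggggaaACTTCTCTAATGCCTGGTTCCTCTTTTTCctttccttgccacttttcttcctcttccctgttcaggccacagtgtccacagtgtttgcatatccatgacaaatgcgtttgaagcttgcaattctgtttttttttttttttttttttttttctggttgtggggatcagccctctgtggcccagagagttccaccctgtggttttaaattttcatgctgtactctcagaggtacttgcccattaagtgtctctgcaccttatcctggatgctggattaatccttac
Clec4a3: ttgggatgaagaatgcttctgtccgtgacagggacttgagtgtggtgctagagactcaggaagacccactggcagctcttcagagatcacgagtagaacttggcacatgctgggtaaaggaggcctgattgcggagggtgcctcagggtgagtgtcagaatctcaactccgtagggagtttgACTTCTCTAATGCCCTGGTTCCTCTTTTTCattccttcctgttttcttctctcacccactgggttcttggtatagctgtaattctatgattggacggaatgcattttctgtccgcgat
Of the 43 pairs of windows from different members that were compared, Clec4a2 and Clec5a also shared a run of 12 bases on the same strand, and Clec4a1 shared runs on opposite strands with Clec5a (15 bases) and Clec12a (14 bases).

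The next 3 windows belong to receptors whose transcripts were higher in monocytes at 14 d. Capitals mark GAGGAA on either strand (TTCCTC when read on the other), a core bound by the myeloid factor PU.1. The Clec4d window lies at chr6:123261857-123262156 on the plus strand, the Clec4e window at chr6:123289822-123290121 on the minus strand and the Clec5a window at chr6:40585756-40586055 on the minus strand.
Clec4d: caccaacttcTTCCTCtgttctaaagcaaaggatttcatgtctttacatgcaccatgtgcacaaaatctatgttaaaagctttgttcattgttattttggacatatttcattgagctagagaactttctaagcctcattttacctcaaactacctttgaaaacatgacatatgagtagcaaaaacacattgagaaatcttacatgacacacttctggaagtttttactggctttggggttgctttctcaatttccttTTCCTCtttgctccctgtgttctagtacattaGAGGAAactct
Clec4e: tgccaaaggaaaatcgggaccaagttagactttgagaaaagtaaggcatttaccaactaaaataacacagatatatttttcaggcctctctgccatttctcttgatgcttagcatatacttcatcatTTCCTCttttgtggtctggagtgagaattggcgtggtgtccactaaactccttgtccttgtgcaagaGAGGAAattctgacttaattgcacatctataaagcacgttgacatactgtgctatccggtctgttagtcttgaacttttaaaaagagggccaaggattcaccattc
Clec5a: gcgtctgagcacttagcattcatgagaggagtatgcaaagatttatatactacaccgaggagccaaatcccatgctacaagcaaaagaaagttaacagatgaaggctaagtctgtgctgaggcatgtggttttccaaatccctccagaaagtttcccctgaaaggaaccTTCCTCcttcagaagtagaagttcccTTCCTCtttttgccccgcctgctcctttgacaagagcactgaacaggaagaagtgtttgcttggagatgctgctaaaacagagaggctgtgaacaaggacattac
The letters GAGGAA occurred in 8 of the 10 windows and in 7 of the 8 members with a window, Clec4a2 being the exception, against 28.3% of 32851 promoter windows of the same length. TGANTCA, with any base at N, is wider than the site of AP-1, which has C or G there. It occurred in the windows of Clec4a2 (as TGACTCA) and Clec12a (as TGAATCA, not an AP-1 site), against 7.81% of all windows. Both motifs were chosen after the windows had been seen, and a match describes letters and not a bound site.

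Monocyte libraries held 15451460 to 28789639 counts. Macrophage libraries held 4610720 to 17074863, the 14 d macrophage libraries being the shallowest at 4610720 to 6838893. Levels are given as CPM, the share of a library's counts in millionths after TMM scaling, and 3 counts equal 0.104 to 0.194 CPM in a monocyte library or 0.176 to 0.651 CPM in a macrophage library. Monocytes at 3 d stood apart, with 40119 to 41134 genes detected against 24775 to 32492 in the other monocyte libraries. Against control monocytes, control macrophages expressed all 10 alveolar macrophage markers tested at a higher level and 6 of 7 Ly6Chi monocyte markers at a lower level. Sex could be read from the counts and followed the time point: each of the 7 libraries at 14 d held 433 to 3033 Y-linked counts and 1 to 32 of Xist, and each of the other 15 held 0 to 3 Y-linked counts and 552 to 4444 of Xist. A difference between 14 d and either other group therefore cannot be told apart from a difference between males and females. The labels do not say whether replicates came from separate mice, and p-values then measure only the spread between these samples. The 3 d and 14 d comparisons of a cell type share their control samples, and in sorted bulk RNA a lower share of expressing cells and less RNA per cell cannot be told apart.

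The first comparison set the levels of the receptors in control cells, and the cell types carried different repertoires. Per kilobase of exonic length, Clec4a3, a member of the DCIR family, was the most abundant in control monocytes at a mean of 955.3 CPM per kb. Clec7a, which encodes the β-glucan receptor Dectin-1, followed at 374.0 CPM per kb, Clec4a1 at 133.9 and Clec12a at 91.89, and the ranges of neighbours in this order did not overlap down to Clec4a2 at 62.87 CPM per kb. The wide range of Clec4n, 26.64 to 87.04 CPM per kb, overlapped those of Clec12a, Clec4a2, Clec4e and Clec10a. At the low end the range of Clec4d overlapped those of Clec10a and Clec5a, whose means were 21.83 and 10.5 CPM per kb. In control macrophages Clec7a, at 619.7 CPM per kb, and Clec4n, which encodes the mannan receptor Dectin-2, at 420.7 CPM per kb, led with overlapping ranges, followed by Clec4a3 at 129.3 and Clec4a2 at 42.2. Clec4a1 and Clec10a closed the order in macrophages at 1.323 and 0.3334 CPM per kb.

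**Figure D1:**
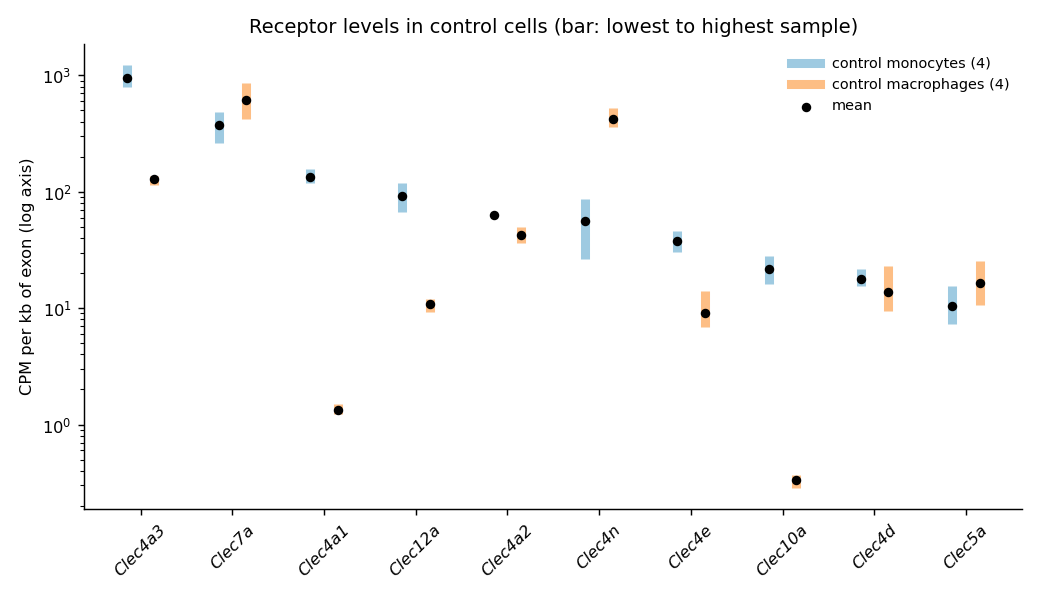
Level of each receptor in CPM per kilobase of exonic length on a log axis in the 4 control monocyte and 4 control macrophage samples, with a dot for the mean and a bar from the lowest to the highest sample. Clec4a3 heads the order in control monocytes at a mean of 955.3 CPM per kb and Clec7a in control macrophages at 619.7 CPM per kb.

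Between the control cells, 8 of the 10 receptors were called, where a call needs an adjusted p (edgeR's quasi-likelihood test, Benjamini-Hochberg over all genes of the fit) under 0.05 and a fold above 1.5. Of all genes tested, 44.2% were called in this comparison, 24.5% higher and 19.7% lower in macrophages. Clec4n was the 1 receptor higher in macrophages, by 2.52 on the log2 scale (adjusted p = 9.89e-05). The 7 lower receptors were led by Clec4a1 at a log2 difference of -7.02 and Clec10a, the galactose-type lectin MGL1, at -6.39. Clec12a, an inhibitory receptor for uric acid crystals, followed at -3.45 and Clec4a3 at -3.25, and Clec4e, which encodes Mincle, at -2.46. Clec4a2, the inhibitory receptor DCIR, differed by -0.94, and Clec4d, the Mincle partner MCL, by -0.76. The Clec4d call was lost under library size scaling (-0.31), TMM factors over highly expressed genes (-0.40), no filter (-0.59) and the replicate block (-0.80, adjusted p = 0.0605), and the Clec4a2 call under library size scaling (-0.51). Clec7a (0.35, adjusted p = 0.318) and Clec5a, the DAP12-coupled receptor MDL-1 (0.28, adjusted p = 0.535), did not pass, although Clec7a was called as higher under both scalings (0.80 and 0.70). The median log2 difference was -1.70 over the 10 receptors and 0.05 over all genes tested. Cell type and count table cannot be told apart in this comparison.

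Monocytes at 14 d, the time the study describes as the peak of injury, showed the clearest movement: 5 receptors rose and 2 fell, against 8.56% of all genes called, 3.22% higher and 5.34% lower. Those that rose were the 4 receptors coupled to activating adaptors, Clec4n, Clec4d, Clec4e and Clec5a, together with the inhibitory Clec4a2. The median log2 change was 0.75 over the 10 receptors and 0.09 over all genes tested. Groups did not overlap for 5 receptors in the upward direction (5.75% of all genes) and for 2 in the downward direction (7.97%), 13.7% in all.

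Clec4d, which encodes MCL, a receptor of mycobacterial glycolipids that pairs with Mincle, stood at 24.7, 30.34, 24.65 and 34.58 CPM in control monocytes and at 56.44, 65.38, 97.97 and 75.42 CPM at 14 d. Each 14 d sample lay above each control sample, and the log2 change was 1.37 (SE 0.214, adjusted p = 0.00087). Clec4e, which encodes Mincle, a receptor of mycobacterial cord factor and of nuclear material from dead cells, moved from 162.8, 213.3, 151.8 and 227.7 CPM to 356.1, 282.2, 384 and 381.9 CPM. The groups did not overlap, and the log2 change was 0.89 (SE 0.228, adjusted p = 0.0235). This call was lost without control replicate 1 or 3 or 14 d replicate 3 or 4, where the change was 0.81 to 0.84 and the adjusted p 0.0613 to 0.0939.

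Clec4n rose the most in size and varied the most between samples. Its levels were 37.83, 74.71, 123.6 and 84.5 CPM in controls and 187, 305.6, 477.6 and 347.7 CPM at 14 d, and every 14 d sample lay above every control sample. The log2 change was 2.04 (SE 0.505, adjusted p = 0.025), and the gene moved to the third place in the order of levels per length, at 232.0 CPM per kb. The call was lost without any 1 of control replicates 1, 2 and 4 or 14 d replicates 2, 3 and 4, where the change was 1.80 to 2.08 and the adjusted p 0.0584 to 0.0918.

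Clec5a and Clec4a2 had smaller standard errors than Clec4n. Clec5a, a receptor of myeloid activation, was at 59.42, 44.7, 28.02 and 29.17 CPM in controls and at 80.56, 93.34, 135.9 and 109.2 CPM at 14 d, a log2 change of 1.38 (SE 0.238, adjusted p = 0.00183). Clec4a2 was at 187.3, 180.8, 180.5 and 187.2 CPM in controls and at 300.3, 301.2, 342.6 and 315 CPM at 14 d, a log2 change of 0.77 (SE 0.133, adjusted p = 0.00171). Neither gene's groups overlapped, and the calls of Clec4d, Clec5a and Clec4a2 were kept without each of the 12 libraries in turn. Clec7a, at 1283, 1201, 687.8 and 774.2 CPM in controls and 1140, 1775, 1614 and 1999 CPM at 14 d, had overlapping groups and a log2 change of 0.73 that did not pass (adjusted p = 0.122).

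The receptors that fell at 14 d were neighbours on chromosome 6. Clec4a1 was at 208.2, 193.4, 186.3 and 246.4 CPM in control monocytes and at 154.1, 117.9, 130.5 and 151.4 CPM at 14 d (log2 change -0.59, SE 0.156, adjusted p = 0.0287). Clec4a3 was at 1346, 1054, 1049 and 1623 CPM in controls and at 898.3, 724.8, 800.8 and 941.4 CPM at 14 d (log2 change -0.59, SE 0.160, adjusted p = 0.0321). Neither overlapped between the groups. Both calls were fragile: without any 1 of 7 libraries the adjusted p rose to between 0.0514 and 0.144 for Clec4a1 (without control 1, 2 or 4, 3 d 2 or 3, or 14 d 2 or 3) and to between 0.0562 and 0.147 for Clec4a3 (without control 1 or 4, 3 d 2 or 3, or 14 d 1, 2 or 3), with changes of -0.62 to -0.50 and -0.62 to -0.45. Under scaling by library size, or by TMM factors computed only over highly expressed genes, both calls were also lost. Clec12a and Clec10a did not pass at 14 d.

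**Figure D2:**
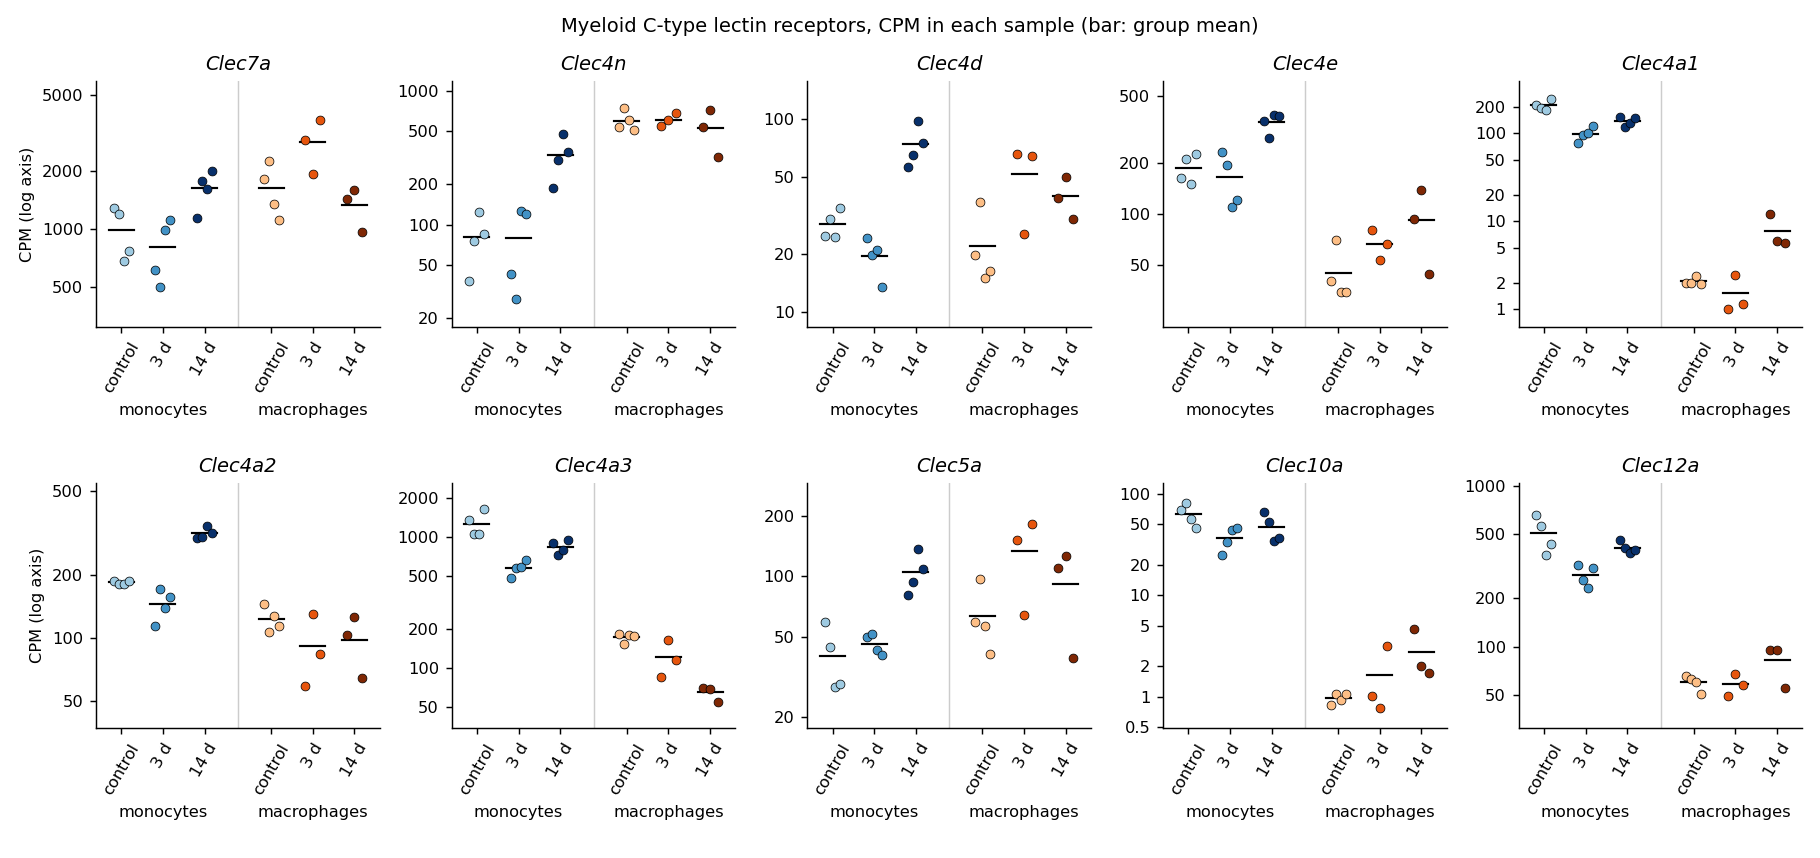
CPM of the 10 receptors in every sample on log axes, by cell type and by group (control, 3 d and 14 d after tamoxifen), with group means as bars. In monocytes all 14 d samples of Clec4d, Clec4e, Clec4n, Clec5a and Clec4a2 lie above all control samples, and all 14 d samples of Clec4a1 and Clec4a3 lie below them.

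Monocytes at 3 d, the start of injury in the study's design, showed the opposite balance, with 4 receptors lower and none higher in the principal fit. Here 51.2% of all genes were called, 36.8% higher and 14.4% lower, and the median change was -0.44 over the receptors and 0.22 over all genes. Groups did not overlap for 6 receptors, all lower at 3 d (51.2% of all genes, 36.6% higher and 14.5% lower). Clec4a1 fell to 77.92, 95.91, 102.2 and 121 CPM (log2 change -1.07, SE 0.158, adjusted p = 0.000481), below each control sample and overlapping the 14 d range. Clec4a3 fell to 485.2, 576.2, 593.3 and 673.1 CPM (log2 change -1.12, SE 0.161, adjusted p = 0.000451), below each control and each 14 d sample. Clec12a, at 656.5, 567.6, 372.9 and 434.8 CPM in controls, fell to 324.8, 261.1, 231.9 and 307.6 CPM (log2 change -0.85, SE 0.174, adjusted p = 0.00187). Clec10a, at 69.16, 80.73, 56.89 and 46.38 CPM in controls, fell to 25.27, 33.27, 43.7 and 45.74 CPM (log2 change -0.77, SE 0.252, adjusted p = 0.0185).

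The size of these 3 d changes depended on the scaling more than at 14 d. With scaling by library size the median change of all genes rose by 0.48, and with TMM factors from highly expressed genes by 0.52, and the share of called genes that were higher went from 71.8% to 95.1% and 95.8%. Clec4a3 stayed called as lower under all 8 alternatives other than leaving out a library. Clec4a1 stayed called except with the factors from highly expressed genes (-0.55, under the fold threshold). Clec12a (-0.36 and -0.33) and Clec10a (-0.28 and -0.24) were not called under either scaling, and the Clec10a call was also lost without 3 d replicate 1 or 2 (-0.69 to -0.58, adjusted p 0.0576 to 0.0737). Neither was called under the filter on mean log2 CPM, and DESeq2 did not call Clec10a. Clec5a was called as higher under both scalings (0.69 and 0.73, adjusted p 0.017 and 0.0144), so that 2 receptors were lower and 1 higher with library size scaling, and 1 lower and 1 higher with the factors from highly expressed genes. Clec4d (-0.54, adjusted p = 0.0428) and Clec4a2 (-0.34, adjusted p = 0.0395) passed the adjusted p and not the fold. Clec4d gained the call without control replicate 1 or 3 or without 3 d replicate 1. Clec7a, Clec4n, Clec4e and Clec4a2 had negative changes at 3 d that turned positive under both scalings, in no case past the test.

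Markers of other cells, and of the sorted monocytes themselves, moved in the monocyte libraries as well. Of 7 Ly6Chi monocyte markers, 1 was higher and 1 lower at 3 d, and 2 were higher and 2 lower at 14 d. Of 10 alveolar macrophage markers, 6 were lower at 3 d and 1 was higher at 14 d. Of all genes, 36.8% were higher and 14.4% lower at 3 d, and 3.22% and 5.34% at 14 d. At 14 d 7 of 10 markers of interstitial or monocyte-derived macrophages rose and 2 fell, with C1qb, a complement subunit, at 18.15 to 72.37 CPM in controls and 382.7 to 904.1 CPM at 14 d, while the sum of the list, most of it Apoe, was 3698 to 8088 CPM in controls, 853.1 to 1293 CPM at 3 d and 3722 to 11950 CPM at 14 d. T and NK cell markers summed to 347.2 to 1457 CPM in controls, 17.27 to 274.4 CPM at 3 d and 19.9 to 40.53 CPM at 14 d, with 6 of 8 genes lower at 3 d and 4 of 8 at 14 d. Neutrophil markers summed to 571.5 to 848.2 CPM in controls, 475 to 1594 CPM at 3 d and 1021 to 1868 CPM at 14 d, without overlap between control and 14 d. Of these 10 markers 1, Mmp8, was called at 14 d, at 126.8 to 275.6 CPM in controls and 443.9 to 724 CPM at 14 d, the median log2 change of the list was 2.08, and S100a8 went from a median of 26.37 CPM to 274 CPM. None of these markers was at 0 in all samples, and their part in the changes of the receptors was not tested.

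From 3 d to 14 d, 6 receptors rose in monocytes and none fell, where 46.5% of all genes were called, 12% higher and 34.5% lower. Clec4d rose by 1.91 on the log2 scale from 24.17, 19.85, 21.12 and 13.5 CPM at 3 d (adjusted p = 0.000201), and Clec4n by 2.06 from 42.74, 27.48, 125.8 and 119.5 CPM (adjusted p = 0.00708). Clec4e rose by 1.09 (adjusted p = 0.00287), Clec4a2 by 1.12 (adjusted p = 0.000261) and Clec5a by 1.18 (adjusted p = 0.00236). Clec7a rose by 1.02 (adjusted p = 0.0088), from 616.1, 498.7, 989.9 and 1114 CPM, so each of its 14 d samples was above each 3 d sample. The Clec7a call was lost under library size scaling (0.63, adjusted p = 0.0653), TMM factors over highly expressed genes (0.55, adjusted p = 0.113) and the filter on mean log2 CPM (0.62, adjusted p = 0.173), and the other 5 calls were kept under all 8 alternatives. Groups did not overlap for 8 receptors, all higher at 14 d (51.4% of all genes, 15.5% higher and 35.9% lower), and the median change was 1.05 over the receptors and -0.26 over all genes.

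**Figure D3:**
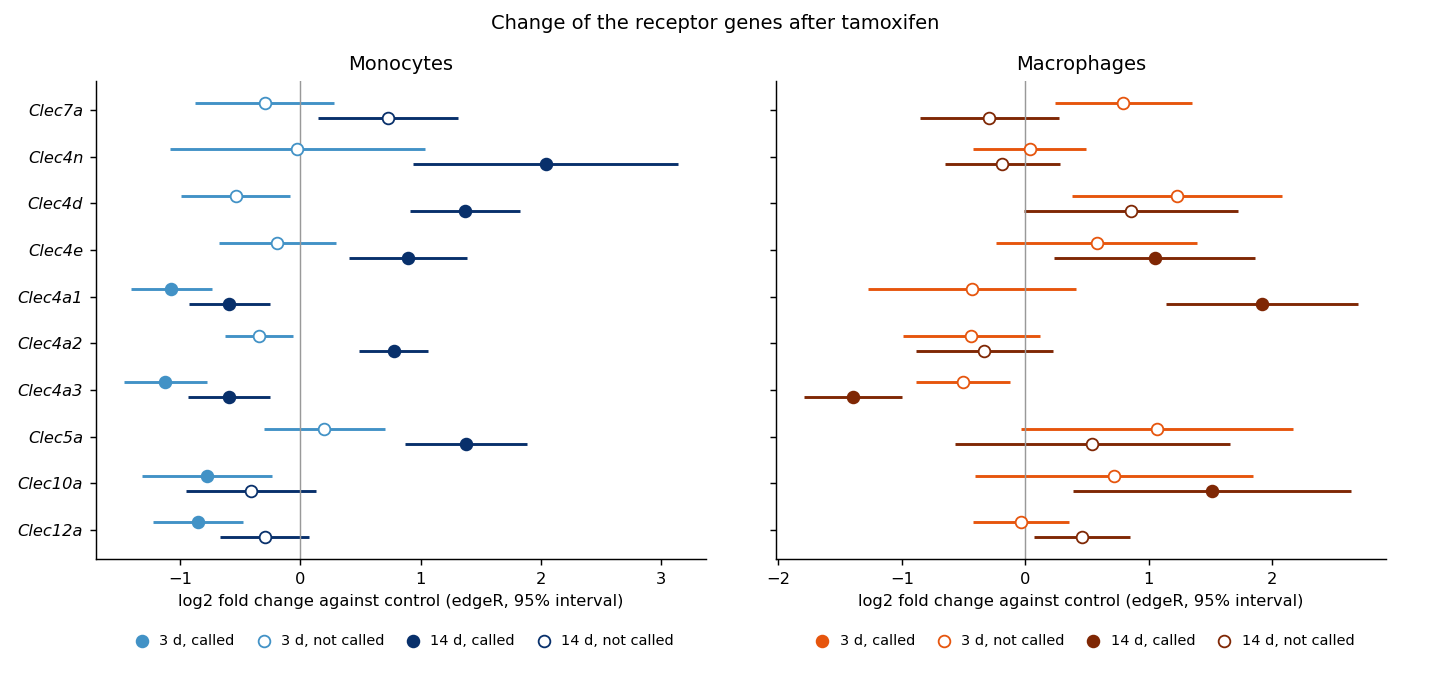
Log2 fold change of each receptor against control with its 95% interval from edgeR, at 3 d and 14 d in monocytes and in macrophages, filled where the change was called. In monocytes at 14 d the values run from -0.59 for Clec4a1 and Clec4a3 to 2.04 for Clec4n, and in macrophages at 14 d from -1.39 for Clec4a3 to 1.92 for Clec4a1.

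In alveolar macrophages at 3 d no receptor was called by edgeR's quasi-likelihood test, against 1.27% of all genes, and 3 had an unadjusted p under 0.05. By DESeq2, which called 2.36% of all genes and 1.77% as higher, 2 were called, Clec7a (0.84, adjusted p = 0.0354) and Clec4d (1.278, adjusted p = 0.0139), both higher at 3 d. Clec7a was at 1819, 2255, 1349 and 1116 CPM in controls and at 2898, 1936 and 3674 CPM at 3 d (log2 change 0.79, adjusted p = 0.166), and replicate 2 of the 3 d group lay within the control range. Clec4d was at 19.72, 37.1, 15.07 and 16.46 CPM in controls and at 65.5, 25.53 and 64.34 CPM at 3 d (log2 change 1.23, adjusted p = 0.172), where the same replicate lay within the control range. Without that replicate edgeR called Clec7a (1.04, adjusted p = 0.0273), Clec4d (1.6) and, in the lower direction, Clec4a3 (-0.74, adjusted p = 0.00752), and Clec4d was also called without control replicate 2 (adjusted p 0.018 to 0.0269 over both). Clec5a followed the same pattern among samples, at 151.8, 64.49 and 182.3 CPM against 59.23, 96.63, 56.69 and 40.9 CPM in controls, with a log2 change of 1.07 (adjusted p = 0.372). Groups overlapped for all 10 receptors, whereas they were apart for 14.0% of all genes, 6.85% higher and 7.16% lower, and the median change was 0.31 over the receptors and -0.01 over all genes.

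At 14 d macrophages had 3 receptors higher and 1 lower, in a comparison in which 62.3% of all genes were called, 39.4% higher and 22.9% lower. Of the called genes 63.3% were higher, and 84.5% and 89.0% under library size scaling and TMM factors over highly expressed genes. Under each of these scalings and by DESeq2, 6 receptors were called instead of 4, and 55.3%, 55.7% and 52.5% of all genes. Groups did not overlap for 2 receptors in the upward direction (40.2% of all genes) and 1 in the downward direction (30.6%), 70.8% in all, and the median change was 0.50 over the receptors and 0.18 over all genes. Clec4a1 rose from 1.986, 1.977, 2.36 and 1.925 CPM to 11.96, 5.923 and 5.579 CPM (log2 change 1.92, SE 0.368, adjusted p = 0.000365). Clec4a3 fell from 181.1, 153, 178.1 and 174 CPM to 70.72, 69.56 and 55.28 CPM (log2 change -1.39, SE 0.188, adjusted p = 2.32e-05). Neither overlapped between the groups, and both calls held under all 8 alternatives other than leaving out a library, with changes of 1.72 to 2.47 for Clec4a1 and of -1.60 to -0.84 for Clec4a3.

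Clec10a rose from 0.8216, 1.064, 0.9176 and 1.062 CPM to 4.609, 2.016 and 1.691 CPM (log2 change 1.51, SE 0.530, adjusted p = 0.0185), so the groups did not overlap. The call rested on 14 d replicate 1, without which the change was 0.90 (adjusted p = 0.196). Clec4e was at 40.19, 70.17, 34.61 and 34.46 CPM in controls and at 93.63, 139.5 and 44.46 CPM at 14 d (log2 change 1.05, SE 0.366, adjusted p = 0.0259), with replicate 3 of the 14 d group inside the control range. The Clec4e call was lost without any 1 of 8 libraries (control 1, 3 and 4, all 3 at 3 d, and 14 d 1 and 2), with changes of 0.60 to 1.01 and an adjusted p of 0.052 to 0.166. Clec12a was at 66.07, 62.64, 60.17 and 50.85 CPM in controls and at 95.79, 95.9 and 55.28 CPM at 14 d, and passed the adjusted p but not the fold (0.46, adjusted p = 0.0341). Without 14 d replicate 3 it was called (0.62, adjusted p = 0.00192), and Clec4d was called without control replicate 2 (1.23, adjusted p = 0.00388). Both were also called as higher under 5 of the 8 other alternatives, among them DESeq2 (0.59 for Clec12a and 0.98 for Clec4d), library size scaling (0.89 and 1.282) and TMM factors over highly expressed genes (1.00 and 1.39). Clec7a, Clec4n, Clec4a2, Clec4d and Clec5a were not called in the principal fit.

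Markers of other cells moved in the same 14 d macrophage libraries, where 39.4% of all genes were called higher and 22.9% lower. Neutrophil markers, of which 7 of 8 tested rose, summed to 426.7 to 1686 CPM against 114.6 to 232.7 CPM in control macrophages. All 4 eosinophil markers rose, from a sum of 0.6639 to 1.901 CPM to one of 28.36 to 107.0 CPM. Markers of interstitial or monocyte-derived macrophages rose for 8 of 10 genes, from 522 to 719.4 CPM to 1005 to 1761 CPM. Most of the control sum was Gpnmb, at 345.7 to 595.7 CPM in controls and 120.8 to 190.7 CPM at 14 d. Apoe was at 46.87 to 79.63 CPM in controls and 442.6 to 933.4 CPM at 14 d. Markers of dendritic cells rose for 4 of 8 genes. Those of Ly6Chi monocytes rose for 5 of 7 genes, from 1331 to 2390 CPM to 3005 to 3647 CPM. Most of this sum was Fn1, at 1290 to 2347 CPM in control macrophages and 2818 to 3370 CPM at 14 d. Fn1 was at 2288 to 3044 CPM in macrophages at 3 d and 907.7 to 3402 CPM in control monocytes. Itgam, which encodes the CD11b that the gate excluded, was at 0.7303 to 2.661 CPM in controls and at 54.95 to 102.4 CPM at 14 d, while Ly6c2 stayed near its control median of 2.018 CPM, at a median of 3.277 CPM. Of the alveolar macrophage markers 7 of 10 fell. The part of these markers in the changes of Clec4a1, Clec10a and Clec4e was not tested.

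From 3 d to 14 d in macrophages, Clec4a1 rose by 2.35 on the log2 scale (adjusted p = 0.000391), from 1.003, 2.406 and 1.147 CPM at 3 d. Here 56.4% of all genes were called, 36.3% higher and 20.0% lower. Clec7a fell by 1.09 (adjusted p = 0.00489), to 1435, 1607 and 963 CPM at 14 d, with each sample below each 3 d sample. Clec4a3 fell by 0.89 (adjusted p = 0.0015) from 85.63, 162.3 and 114.8 CPM at 3 d. The Clec7a and Clec4a3 calls were lost under scaling by library size and under TMM factors from highly expressed genes, which moved the median of all genes by 0.43 and 0.49. Groups did not overlap for 1 receptor in the upward and 2 in the downward direction, against 65.5% of all genes, 39.0% higher and 26.5% lower.

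Whether the receptors changed differently in the cell types was tested in 1 fit over all 22 samples, as the change in macrophages minus the change in monocytes. At 3 d the difference was called for Clec4d alone (1.61, SE 0.412, adjusted p = 0.0116), which changed by -0.54 in monocytes and 1.23 in macrophages, in a test that called 18.7% of all genes, 3.51% higher and 15.2% lower. At 14 d it was called for 6 receptors, against 36.8% of all genes, 16.9% higher and 19.9% lower. The median difference was -1.0 over the receptors and 0.48 over all genes.

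The lower 14 d differences belonged to Clec4n (-2.57, adjusted p = 0.0048), Clec4a2 (-1.46, adjusted p = 0.000462), Clec7a (-1.36, adjusted p = 0.014) and Clec4a3 (-1.15, adjusted p = 0.0015). In macrophages Clec4n stood at 537, 742.2, 602.8 and 507.8 CPM in controls and at 537.6, 719.7 and 318 CPM at 14 d, so it did not follow the monocyte rise. Clec4a2 stood at 145.5, 106.4, 127.7 and 114.3 CPM in control macrophages and at 103.4, 126.1 and 64.41 CPM at 14 d. The Clec7a difference was lost without monocyte 14 d replicate 4 (-1.12, adjusted p = 0.0703). It was also lost by DESeq2. Under library size scaling, TMM factors over highly expressed genes and the filter on mean log2 CPM, the Clec7a and Clec4a3 differences were both lost. With TMM factors over highly expressed genes the Clec4a2 difference was not called (-0.68, adjusted p = 0.0652), and Clec12a gained a call under 4 of 7 alternatives, among them both scalings (1.06 and 1.17) and DESeq2 (0.82). The higher differences belonged to Clec4a1 (2.17, adjusted p = 4.3e-05) and Clec10a (1.58, adjusted p = 0.0234), the latter lost without macrophage 14 d replicate 1 (0.98, adjusted p = 0.173). Clec5a gained a call without macrophage control replicate 4, macrophage 14 d replicate 2 or monocyte control replicate 1 (-1.46 to -1.34).

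Clec4a1 and Clec4a3, whose promoter windows shown above share the capital runs, moved together in monocytes and apart in macrophages at 14 d. Over the 12 monocyte samples the Pearson correlation of their log2 CPM was 0.986, the highest of any pair of receptors there. Over the 10 macrophage samples it was -0.584, which was not the lowest, as Clec4a3 and Clec10a stood at -0.644. Clec4d and Clec4a2 likewise went from 0.892 over monocytes to -0.592 over macrophages. These values describe samples that share group means, and no p is given for them. In monocytes both fell at 3 d and stood between the 3 d and control levels at 14 d. In macrophages at 3 d neither was called, with changes of -0.43 for Clec4a1 and -0.50 for Clec4a3. They parted in macrophages at 14 d. There Clec4a1 was higher, at 5.579 to 11.96 CPM against 1.925 to 2.36 CPM in controls. Its counts were low, at 33 to 83 per library against 26 to 36 in controls. Clec4a3 was lower, at 55.28 to 70.72 CPM against 153 to 181.1 CPM in controls.

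**Figure D4:**
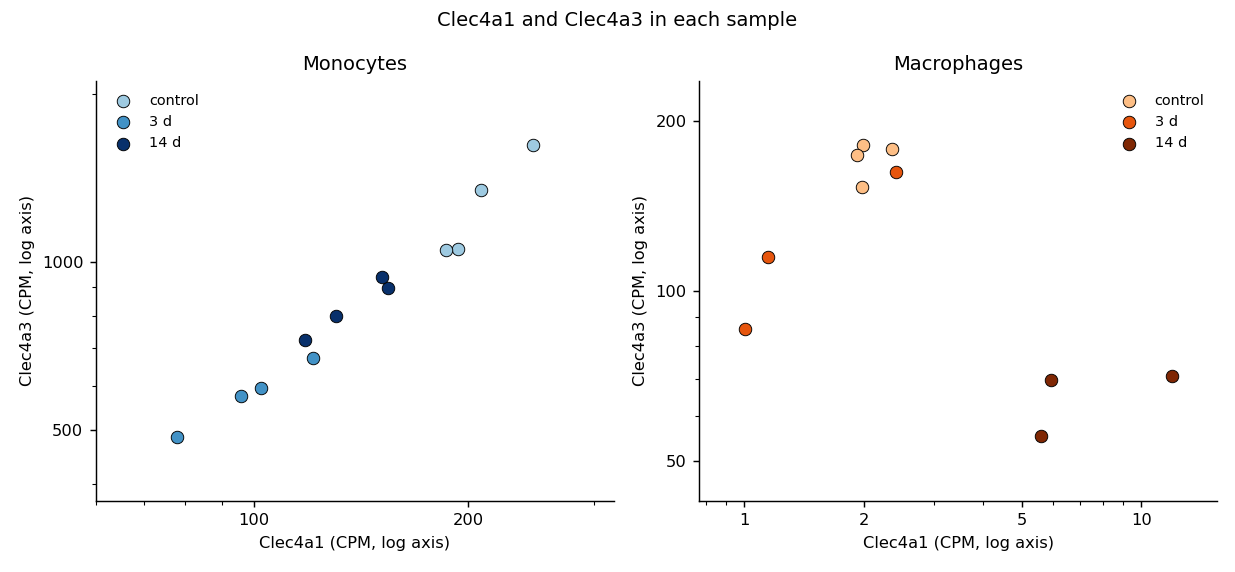
Clec4a1 against Clec4a3 in CPM on log axes, 1 point for each sample, with monocytes in the left panel, macrophages in the right panel and darker colour from control to 14 d. The monocyte samples follow 1 line (r = 0.986 on log2 CPM), whereas the 3 macrophage samples at 14 d lie to the right of and below the control macrophages, with more Clec4a1 and less Clec4a3.

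Among the activating receptors, Clec4d and Clec4e, which lie next to each other in the Clec4 group and whose proteins pair, correlated at 0.899 over monocytes and 0.812 over macrophages. Clec4d and Clec5a correlated at 0.801 and 0.873. After the mean of each cell type was subtracted, the gene most like each receptor over the 22 samples, among 7545 or 7546 candidates, was Lilr4b for Clec7a (r = 0.873), F7 for Clec4n (0.927), Esd for Clec4d (0.929) and for Clec5a (0.902), and Clec4d for Clec4e (0.856). It was Lipe for Clec4a1 (0.881), Ten1 for Clec4a2 (0.892), Laptm4a for Clec4a3 (0.970), Gfm2 for Clec10a (0.782) and Sephs1 for Clec12a (0.828). These genes share libraries, depth and group means with the receptors.

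The adaptors and signalling genes of the receptors, 38 in a list of known pathway members, moved in a balance that depended on the scaling. In monocytes at 3 d, 2 were higher and 24 lower (median change -0.72), and at 14 d 2 were higher and 9 lower (median change -0.35). Src, a kinase, was higher at both times by 2.98 and 2.68 on the log2 scale, from a mean of 0.3913 CPM in controls, and Cxcl2, a neutrophil chemokine, was higher at 14 d by 2.52. In macrophages at 3 d only Il6 was called, higher by 2.93. Of all genes, 36.8% were called higher and 14.4% lower in monocytes at 3 d, and 3.22% and 5.34% at 14 d. The shares were 1.05% and 0.224% in macrophages at 3 d, and 39.4% and 22.9% at 14 d. In macrophages at 14 d, 6 of the list were higher and 15 lower (median change -0.49). Fcer1g, the FcRγ adaptor of Dectin-2, Mincle and MCL, fell by 0.63, Tyrobp, the DAP12 adaptor of Clec5a, by 1.16, Syk by 1.13 and Card9 by 1.14. The targets Ptgs2 (5.05), Il10 (3.23) and Il1b (2.38) were among those that rose. With library size scaling and with TMM factors over highly expressed genes, applied to this list after the data had been seen, 4 were higher and 5 or 3 lower in monocytes at 3 d (medians -0.23 and -0.20), and 8 were higher and 6 or 5 lower in macrophages at 14 d (medians -0.061 and 0.053). In macrophages at 14 d Tyrobp (-0.73 and -0.62) and Card9 (-0.71 and -0.60) stayed called under both, Syk only under the former (-0.70), and Fcer1g under neither (-0.20 and -0.088). Between the control cells all 3 adaptors were lower in macrophages, Fcer1g by 3.01, Tyrobp by 2.62 and Hcst by 2.71, while Card9 was higher by 1.84.

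**Figure D5:**
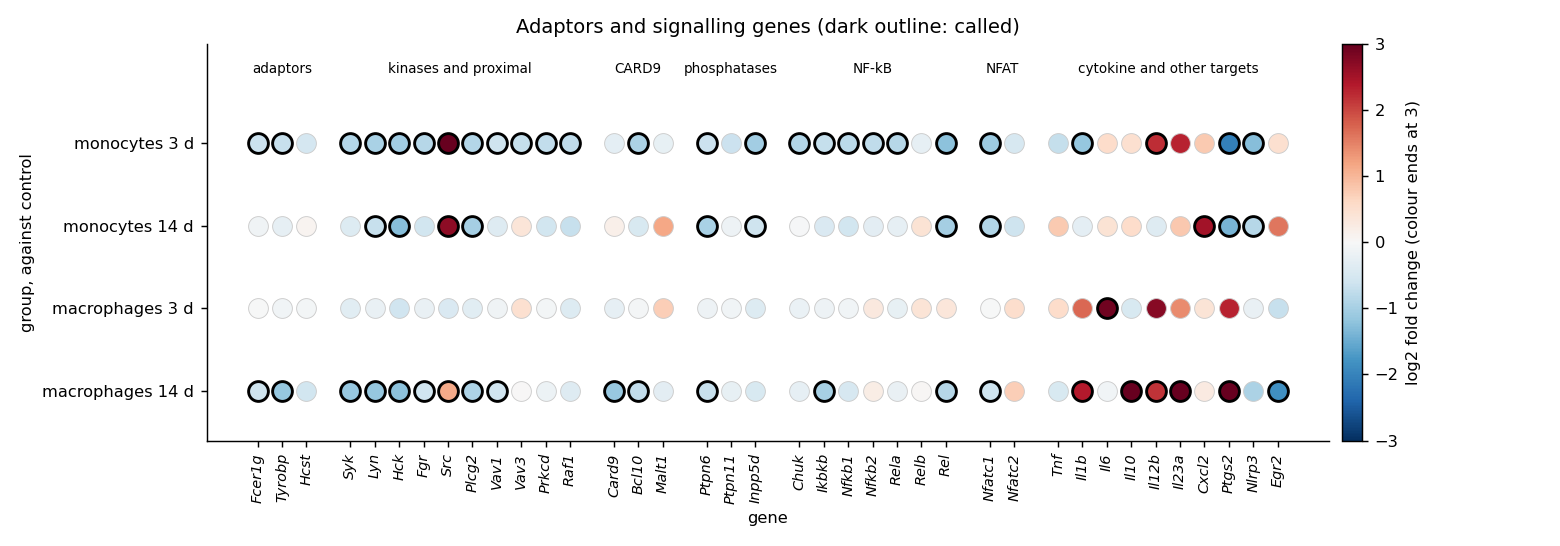
Log2 fold change against control of the adaptor and signalling genes of the receptors, as colour (blue lower, red higher, ending at 3) in monocytes and macrophages at 3 d and 14 d, with a dark outline where called. In macrophages at 14 d the adaptors Fcer1g (-0.63) and Tyrobp (-1.16) are blue and the targets Ptgs2 (5.05) and Il1b (2.38) red.

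A list of 30 other C-type lectin genes served to place the 10 receptors in the wider family, of which 26 were tested in monocytes and 23 in macrophages. In monocytes 3 were higher and 9 lower at 3 d (5 and 6 under both other scalings), against 36.8% and 14.4% of all genes. At 14 d 1 was higher and 8 lower, against 3.22% and 5.34% of all genes, the higher one being Cd302 (0.72). In macrophages none was called at 3 d, against 1.27% of all genes. At 14 d, where 39.4% of all genes were higher and 22.9% lower, 8 of the list were higher and 9 lower. The latter included Mrc1, the mannose receptor typical of alveolar macrophages, which fell by 1.63 from a mean of 1599 ± 181.6 CPM (SD, n = 4) to 516.1 ± 117.9 CPM (SD, n = 3), and Cd302 (-1.41). Among those higher were Mgl2 (3.88), the neighbour of Clec10a with which it shares part of its sequence, and Cd209a (2.97), a marker of dendritic cells, from a mean of 0.3952 CPM to 3.203 CPM.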

How the data were processed

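RNA of sorted Ly6Chi monocytes and alveolar macrophages was enriched with oligo(dT), made into libraries with a kit that does not mark strand, and sequenced as read pairs in 1 lane. The authors deposited whole-number counts per gene, not normalized, in 1 table per cell type. The submitters' processing notes name STAR 2.7.2c and 2.7.3a, featureCounts 1.6.3, DESeq2 1.26.0 and 1.28.1 and the build GRCm38, and the annotation release and strand setting of the counting are not given in the sources used here. Without strand, reads of overlapping genes on opposite strands cannot be told apart.

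From these deposited counts each cell type was fitted in R 4.3.3 with edgeR 4.0.16 (filterByExpr, TMM, robust quasi-likelihood, 3 groups in 1 fit), and both cell types in 1 fit over the 31116 genes common to both tables. Tests were two-sided, p-values were adjusted by Benjamini-Hochberg over all 22353, 20944 and 26692 genes tested, and a call needed an adjusted p under 0.05 and a fold above 1.5. Log2 CPM used a prior count of 2. The level of 3 counts covers counting error only, and the intervals of fold changes cover the spread between samples. The fits were tested on simulated data with few changed genes, split equally between higher and lower. That test does not cover comparisons in which a large share of all genes is called, mostly in the same direction. The alternatives were DESeq2 1.42.0, library size scaling, TMM factors computed over highly expressed genes (mean log2 CPM above 5), other filters, the replicate number as a block, the adjusted p alone, the 2 groups compared alone, and leaving out each library.

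The named genes were the 10 receptors, 30 other C-type lectin genes and 38 adaptor and signalling genes, named where called in a contrast, the 1 gene most like each receptor by Pearson correlation after subtracting the mean of each cell type, and markers of cell types. C1qb, Apoe, Gpnmb, S100a8, Mmp8, Itgam, Ly6c2 and Fn1 were singled out among the markers after their values were seen. The receptors and lists were chosen with earlier results of these data known. No 2 libraries of the same group agreed within sampling noise.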

Additional observations from a re-analysis of the deposited data

Results flagged for a closer look

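In 40 groups of 4 samples, 1 sample stood far from the other 3 in 2 groups, both in control macrophages, and chance gives about 1 in 20. The highest Clec4e value was 70.17 CPM and the highest Clec4a1 value was 2.36 CPM.

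The change differed between macrophages and monocytes (macrophages minus monocytes on the log2 scale, edgeR's quasi-likelihood test) for Clec4d at 3 d, by 1.61. At 14 d it differed for Clec4n by -2.57, for Clec4a2 by -1.46, for Clec7a by -1.36, for Clec4a3 by -1.15, for Clec4a1 by 2.17 and for Clec10a by 1.58. With scaling by library size or by TMM factors from highly expressed genes the median difference of all genes at 14 d moved by 0.67 and 0.78, and the differences of Clec7a and Clec4a3 were no longer called under either, nor was that of Clec4a2 under the TMM factors (-0.68).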

How the results depend on the processing

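Each of the 90 changes of single receptors was recomputed under many alternatives. Over all of these values, 62 changed direction, 23 of them on leaving out 1 library. None was for a receptor called in the principal fit and none had an adjusted p under 0.05. Among 687 values under alternatives other than leaving out a library, 39 lost a call and 37 gained one. Calls moved with the 2 scalings and also with the filters, DESeq2, the adjusted p alone, the replicate block and the fits of 2 groups. Library size scaling shifted the median log2 change of all genes by 0.48 in monocytes at 3 d and by 0.44 in macrophages at 14 d. In monocytes from 3 d to 14 d the shift was -0.38. With TMM factors from highly expressed genes these shifts were 0.52, 0.56 and -0.46. The share of called genes that were higher went with these scalings from 71.8% to 95.1% and 95.8% in monocytes at 3 d, from 63.3% to 84.5% and 89.0% in macrophages at 14 d, from 25.8% to 5.77% and 4.32% in monocytes from 3 d to 14 d, from 64.5% to 87.5% and 89.5% in macrophages from 3 d to 14 d, from 18.7% to 7.19% and 6.77% for the 3 d difference between cell types, from 45.9% to 81.5% and 86.0% for the 14 d difference, and from 55.5% to 71.2% and 67.9% between the control cells. In monocytes at 14 d it went from 37.6% to 48.6% with library size.

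With library size scaling, in monocytes at 3 d Clec7a was at 0.20, Clec4n at 0.46, Clec4e at 0.29 and Clec4a2 at 0.14. In macrophages at 14 d Clec7a was at 0.13, Clec4n at 0.24 and Clec4a2 at 0.094, from 3 d to 14 d Clec4n was at 0.19 and Clec4d at 0.054, and the 14 d difference of Clec4e was 0.46. With TMM factors from highly expressed genes these values were 0.24, 0.51, 0.32 and 0.18, then 0.24, 0.34 and 0.20, then 0.24 and 0.093, then 0.56, with Clec10a at -0.088 in monocytes from 3 d to 14 d and Clec12a at 0.028 in macrophages at 3 d. With only genes of a mean log2 CPM above 1 they were 0.092, 0.38, 0.19 and 0.045, then 0.065, 0.17 and 0.029, then 0.10 for Clec4n from 3 d to 14 d in macrophages, then 0.38, with Clec10a at -0.0046 in monocytes from 3 d to 14 d. DESeq2 gave 0.12 for Clec4n in monocytes at 3 d, 0.0049 for Clec12a in macrophages at 3 d and 0.19 for the 14 d difference of Clec4e. Without a filter Clec5a was at -0.071 in monocytes at 3 d and Clec4a2 at -0.12 in macrophages from 3 d to 14 d, and with the 2 groups alone Clec4n was at 0.040 in monocytes at 3 d.

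The number of genes called was 19592 (monocytes, 3 d) and 16664 (monocytes, 14 d against 3 d) without a filter, and with only genes of a mean log2 CPM above 1, where fewer genes were tested, it was 1468 and 1557, 5018 (macrophages, 14 d), 4236 (macrophages, 14 d against 3 d), 1211 and 3736 (differences at 3 d and 14 d) and 7586 (control cells). In monocytes at 3 d 2 receptors were called under that filter and 2 with TMM factors from highly expressed genes. In macrophages at 3 d DESeq2 called 735 genes and 2 receptors, against 267 and 0 by edgeR. Clec10a was not tested in macrophages under the filter on mean log2 CPM.

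Without each library in turn, the genes called were 9758 to 13836 (monocytes, 3 d), 1158 to 1904 (monocytes, 14 d, lowest without 14 d replicate 3), 8553 to 12753 (monocytes, 14 d against 3 d), 77 to 1476 (macrophages, 3 d, without 3 d replicate 1 and 3 d replicate 2), 12400 to 17262 (macrophages, 14 d), 11421 to 14092 (macrophages, 14 d against 3 d), 2272 to 5370 (lowest without macrophage 3 d replicate 3) and 7879 to 10601 (differences at 3 d and 14 d) and 11118 to 11859 (control cells). In the same order the receptors called were 3 to 5, 3 to 7 (3 without monocyte control replicate 1 or 14 d replicate 3), 6 to 9, 0 to 3, 2 to 5, 3 to 4, 1 to 2, 5 to 7 and 7 to 8. Direction turned for Clec4n (-0.32 to 0.30) and Clec4e (-0.35 to 0.022) in monocytes at 3 d. In macrophages it turned for Clec4n (-0.026 to 0.16), Clec12a (-0.12 to 0.085) and Clec10a (-0.093 to 1.09) at 3 d, Clec4n (-0.51 to 0.017) at 14 d and Clec4a2 (-0.28 to 0.28) from 3 d to 14 d. It also turned for the differences of Clec4n (-0.40 to 0.19) and Clec4a2 (-0.53 to 0.10) at 3 d and of Clec4e (-0.58 to 0.12) at 14 d. Between the control cells the Clec4d call was lost without any 1 of 9 of the 22 libraries (-0.73 to -0.59, adjusted p 0.052 to 0.0977). The cause of these changes was not tested.

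Samples with the same replicate number were not taken as pairs: their deviations from the group means correlated at 0.089 to 0.521 for control and 14 d monocytes (mean 0.28), and the means for the other pairs of groups were -0.061 to 0.072. With the replicate number as a block, macrophages at 3 d had 133 genes called and Clec4n at -0.012, and the 14 d calls were lost for Clec4a3 in monocytes (-0.58) and for the difference of Clec10a (adjusted p = 0.0583), and the Clec4d call between the control cells was lost (-0.80, adjusted p = 0.0605). Depth limits Clec4a1 and Clec10a in macrophages, whose control levels were 1.925 to 2.36 and 0.8216 to 1.064 CPM against 3 counts at 0.176 to 0.651 CPM.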
